A study of Arabidopsis thaliana with 6 samples.

Results

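The genes described here encode the folding chaperones of the endoplasmic reticulum (ER) in Arabidopsis thaliana: the luminal HSP70 proteins *BIP1* (AT5G28540), *BIP2* (AT5G42020) and *BIP3* (AT1G09080), the luminal HSP90 protein *HSP90.7* (AT4G24190, also SHEPHERD), the calnexins *CNX1* (AT5G61790) and *CNX2* (AT5G07340), the calreticulins *CRT1a* (AT1G56340), *CRT1b* (AT1G09210) and *CRT3* (AT1G08450), and *UGGT* (AT1G71220, also EBS1), the enzyme that returns unfinished glycoproteins to calnexin and calreticulin. The 10 genes were taken by their AGI loci, and each is 1 of the 33201 rows of the deposited table. They were chosen with their values in *an3* and Col already known, so the *an3* and Col levels below are a description.

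The samples were root tips of about 5 mm from seedlings grown for 5 days, with 3 samples of *an3*, a loss-of-function line of the transcriptional co-activator ANGUSTIFOLIA 3 (AN3), and 3 samples of the wild type Col. The labels number them as replicates, and the study's methods call them biological replicates. Neither the labels nor these methods name the *an3* allele. RNA-seq levels are given in FPKM, fragments per kilobase of transcript scaled to the mapped reads, a unit corrected to transcript length so that genes can be compared with each other. The table holds 1 value per gene and genotype for the 3 samples together, so no value has an SD, no difference could be tested, and the sequencing depth is not known. The ratios below therefore compare 2 pooled values, and it cannot be said which genes next to each other in level differ beyond the spread between replicates.

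As a check of the labels, *AN3* (AT5G28640) itself was at 2.55 FPKM in *an3*, against 21.5 FPKM in Col, which is 11.9% of the Col level. Markers of root tissues were present in both genotypes: the 13 genes listed ranged between 0.719 and 891 FPKM in *an3* and between 0.638 and 681 FPKM in Col, and of the 10 that averaged 1 FPKM or more, 4 had a log2 ratio above 0 and 6 below 0, with 1 past 1.5-fold higher and 1 past 1.5-fold lower. Some of these markers differed by as much as the chaperones below: the endodermal gene *CASP1* was at 891 FPKM in *an3*, against 681 FPKM in Col, and the root hair genes were lower in *an3*, *RHD6* with 15.9 FPKM in *an3* against 24 FPKM in Col, *COBL9* with 115 FPKM in *an3* against 134 FPKM in Col and *EXPA7* with 386 FPKM in *an3* against 444 FPKM in Col. The gene past 1.5-fold higher was *PLT1*, of the stem cell niche, with 1.47 FPKM in *an3*, against 0.944 FPKM in Col. With a Col level under 1 FPKM, *PLT1* counted as measured only through its *an3* value. Its homolog *PLT2* was at 1.41 FPKM in *an3*, against 1.52 FPKM in Col. Of 5 shoot markers, the meristem genes *STM* and *WUS* were listed at 0 in both genotypes. The photosynthesis genes *RBCS1A*, *CAB1* and *PSBO1* were lower in *an3*, and the 5 shoot markers summed to 21.7 FPKM in *an3*, against 59.2 FPKM in Col. The part of these differences in root and shoot markers in the chaperone values was not tested.

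Proteins that enter the secretory pathway fold in the ER lumen. BiP binds exposed hydrophobic stretches and releases them with the help of J-domain co-chaperones, while HSP90.7 acts on a narrower set of clients. Calnexin, a membrane protein, and calreticulin, its soluble counterpart, hold glycoproteins whose N-glycan carries a single glucose, and UGGT adds that glucose back to glycoproteins that have not yet folded. When unfolded proteins accumulate, the membrane-bound factors bZIP28 and bZIP17 and the IRE1 target bZIP60 raise chaperone transcription, a program called the unfolded protein response (UPR), which acts through promoter elements known as ERSE and UPRE. Root tip cells secrete wall material and make many membrane proteins, and this keeps the chaperones in constant demand.

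Matches to these elements near the starts of the chaperone genes are shown because UPR factors are known to read such elements in promoters. Stretches were cut at the annotated gene models from the RefSeq genome TAIR10.1, whose coordinates are given; the deposited table holds no coordinates, and the build behind it is not stated in the labels or the study's methods. The following 4 elements were searched on both strands: ERSE-I (CCAAT, any 10 bases, CACG), ERSE-II (ATTGG, any base, CCACG), the UPRE core (TGACGTGG) and UPRE-III (TCATCG). ERSE-II and the reverse of the UPRE core share the bases CCACG, so 1 stretch can hold both. Each line gives the strand that the gene is read from, 5′ to 3′, and capitals mark the fixed bases of ERSE-I, ERSE-II and the UPRE core.
BIP1 (chr5:10543421-10543450, minus strand, 30 bases from -176 relative to the start codon): gtaagataATTGGtCCACGTCAtctctgat
BIP2 (chr5:16810652-16810681, minus strand, 30 bases from -337 relative to the start codon): gtaagataATTGGtCCACGTCAtctccgat
BIP3 (chr1:2931913-2932039, minus strand, -189 to -63 from the annotated start): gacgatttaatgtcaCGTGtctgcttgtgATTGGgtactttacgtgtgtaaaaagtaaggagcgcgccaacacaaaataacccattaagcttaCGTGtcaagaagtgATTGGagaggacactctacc
HSP90.7 (chr4:12556059-12556119, minus strand, -61 to -1 from the annotated start): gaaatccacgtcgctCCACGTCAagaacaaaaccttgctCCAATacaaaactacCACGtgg
CNX1 (chr5:24829857-24829886, minus strand, 15 to 44 from the annotated start): tgaaTGACGTGGcctgttatgATTGGttag
CRT1a (chr1:21092710-21092822, minus strand, -113 to -1 from the annotated start): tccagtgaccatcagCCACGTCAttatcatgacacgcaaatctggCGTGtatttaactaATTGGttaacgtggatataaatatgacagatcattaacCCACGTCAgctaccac
CRT1b (chr1:2976809-2976838, minus strand, 30 bases from -183 relative to the start codon): tctgaCGTGtcggttacctATTGGattacg
UGGT (chr1:26841507-26841549, plus strand, -43 to -1 from the annotated start): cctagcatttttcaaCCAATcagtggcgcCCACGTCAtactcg
The stretches of *BIP3*, *HSP90.7*, *CRT1a* and *UGGT* lie before the annotated start. Those of *BIP1*, *BIP2*, *CNX1* and *CRT1b* lie after it and before the start codon. In *BIP1* and *CRT1b* they are inside an annotated exon, so these 2 are not promoter sequence by this annotation. The annotated start of *UGGT* is its start codon, so whether its stretch is promoter or transcribed leader is not known. The *BIP2* stretch was not wholly in an exon of the transcript read, and that of *CNX1* was not compared with exons. The *BIP1* and *BIP2* stretches shared 29 of 30 bases. *BIP3* stood apart from its homologs, with ERSE-I in 2 copies and no UPRE core. *CRT1a* held the UPRE core in 2 copies around a single ERSE-I, and in *CNX1* and *UGGT* the UPRE core overlapped ERSE-I.

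The 10 transcripts also differ in how their products stay in the ER, which is read from the end of the coding sequence. In these lines, from the same RefSeq genome, the capitals are the last 4 codons and the lower-case bases the stop codon.
BIP2, chromosome 5: CACGATGAGCTCtag
BIP3, chromosome 1: CACGATGAGTTAtag
HSP90.7, chromosome 4: AAGGACGAACTGtag
CRT1b, chromosome 1: CATGATGAGCTAtag
CRT3, chromosome 1: CATGACGAGCTAtga
CNX1, chromosome 5: AGACGTGATAATtag
The BiP and calreticulin genes, 6 in all, ended in codons for the retrieval signal HDEL, which recycles soluble proteins to the ER, and *HSP90.7* ended in codons for its variant KDEL. The 2 calnexins, which are anchored in the membrane, and *UGGT* ended in neither. The coding sequences of *BIP1* and *BIP2* were 96.8% identical over aligned bases, and those of *BIP3* and *BIP1* 73.3%. *CNX1* and *CNX2* shared 84.6%, *CRT1a* and *CRT1b* 84.4%, and *CRT3* and *CRT1a* 65.5%. Of the stretches of 100 bases in each transcript, the length of the reads, 8.7% in *BIP1* and 9.45% in *BIP2* occurred in the other gene as well, so reads from there cannot be assigned to 1 of the pair. In the other 8 genes no such stretch was shared with any annotated gene.

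The chaperone mRNAs were higher in *an3* for 9 of the 10 genes, 7 of them by 24.9% to 48.4% of the Col level. *BIP3* was the exception in size, with 8.66 times the Col level, and *UGGT* the exception in direction, with 0.972 times. The median log2 ratio of the 10 genes was 0.40, while the median over the 17229 measured rows of the table, those averaging 1 FPKM or more, was -0.0034. Of those 17229 rows, 8510 had a log2 ratio above 0 and 8719 below 0. The counts by direction, here and for the lists below, stand beside these. Ratios are *an3* over Col, and log2 ratios were taken after adding 0.1 FPKM to both values. In pooled tissue, a lower level can come from fewer cells of a type or from less RNA per cell, and a higher level from the reverse; these cannot be told apart.

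**Figure D1:**
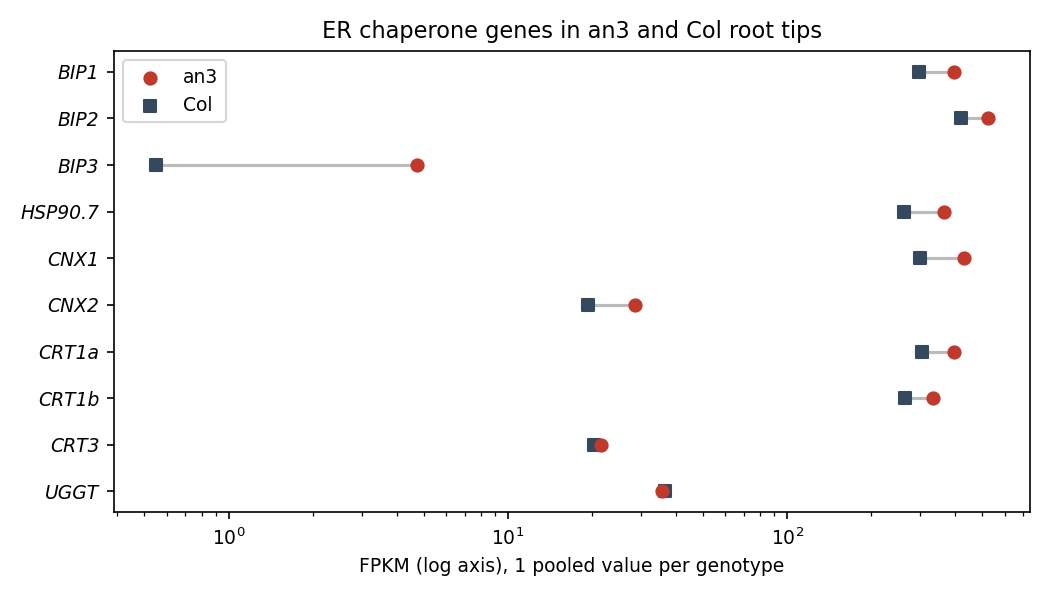
Levels of the 10 ER chaperone genes on a log axis in FPKM, with circles for *an3* and squares for Col, each point being the authors' value for 3 samples together. *BIP3* lies far below the other genes and has the widest gap (4.74 FPKM in *an3*, 0.548 FPKM in Col), while the points of *UGGT* and *CRT3* nearly coincide.

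The BiP genes differed widely in level. *BIP2*, the most abundant of the 10 genes in both genotypes, was at 524 FPKM in *an3*, against 419.7 FPKM in Col (log2 ratio 0.32). *BIP1* was at 396 FPKM in *an3*, against 296 FPKM in Col (log2 ratio 0.42). Both are made at high levels in unstressed tissue, and together they summed to 919.7 FPKM in *an3*, against 716 FPKM in Col, a ratio of 1.28. The split of shared reads between the pair bears on this sum only through their transcript lengths, 2836 bases for *BIP1* and 2617 for *BIP2*.

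*BIP3*, the copy that is nearly silent until the UPR is active, was at 4.74 FPKM in *an3*, against 0.548 FPKM in Col (log2 ratio 2.90). *BIP3* counts as measured only through its level in *an3*, so its place among the measured rows is not given as a result. By level, it ranked 12756th of 33201 rows in *an3* and 18271st in Col. Even so, *BIP3* made up only 0.513% of the summed BiP FPKM in *an3*, against 0.0765% in Col, so the BiP pool was made up almost wholly of *BIP1* and *BIP2* transcripts in both genotypes. Of all 10 genes *BIP3* had the lowest level, and at 1 value per genotype the error of the Col value of 0.548 FPKM is unknown.

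*HSP90.7*, the luminal HSP90, was at 364 FPKM in *an3*, against 263 FPKM in Col (log2 ratio 0.47). The summed level of *BIP1* and *BIP2* was 2.53 times that of *HSP90.7* in *an3*, against 2.72 times in Col.

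Of the lectin chaperones, *CNX1* had the largest difference in FPKM among the 10 genes, with 429 FPKM in *an3*, against 299.8 FPKM in Col (log2 ratio 0.52). Its homolog *CNX2* was at a far lower level, 28.6 FPKM in *an3*, against 19.3 FPKM in Col (log2 ratio 0.57). The 2 calnexins thus differed between the genotypes by nearly the same ratio, and the share of *CNX2* in their summed FPKM was 6.25% in *an3* and 6.04% in Col.

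The calreticulins *CRT1a* and *CRT1b* serve general glycoprotein folding, whereas *CRT3* is a plant-specific form known for its role with receptor kinases. *CRT1a* was at 396 FPKM in *an3*, against 303 FPKM in Col (log2 ratio 0.39). *CRT1b* was at 334 FPKM in *an3*, against 264 FPKM in Col (log2 ratio 0.34). *CRT3* was at 21.6 FPKM in *an3*, against 20.4 FPKM in Col (log2 ratio 0.09), and made up 2.88% of the summed calreticulin FPKM in *an3*, against 3.47% in Col. *UGGT*, which acts with *CRT3* on the same receptors, was at 35.6 FPKM in *an3*, against 36.7 FPKM in Col (log2 ratio -0.04). The genes with the smallest ratios were thus *CRT3* and *UGGT*, at the level of *CNX2* but without its difference.

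Summed over the 10 genes, the chaperone mRNAs came to 2534 FPKM in *an3*, against 1922 FPKM in Col, a ratio of 1.32. This was 0.292% of the summed FPKM of all rows in *an3* and 0.231% in Col. The calnexins had the highest family ratio at 1.44, with 458 FPKM in *an3* and 319 FPKM in Col. The calreticulins had a ratio of 1.28, with 752 FPKM in *an3* and 587 FPKM in Col. The order of levels was alike in both genotypes at its ends, with *BIP2* first and *BIP3* last. In between, *CNX1* was above *CRT1a*, *HSP90.7* above *CRT1b* and *CNX2* above *CRT3* in *an3*, each pair being in the opposite order in Col, where *HSP90.7* and *CRT1b* were nearly equal at 263 and 264 FPKM.

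Past a ratio of 1.5, only *BIP3* was higher in *an3*, 1 of 10 genes, and none was lower. Over all measured rows, 3.89% were higher by this measure and 3.06% lower. *BIP3* was also the only one of the 10 past 2-fold higher, where 1.14% of all measured rows were. With a Col level under the minimum of 1 FPKM, *BIP3* entered these counts through its *an3* value alone. At a difference of 25%, 7 of the 10 genes were higher and none was lower by the same ratio, where 11.4% of all measured rows were higher and 10.2% lower. *CNX2* lay just under the first limit, 48.4% above its Col level, and *BIP2* just under the other, 24.9% above its Col level.

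The genes *BIP1*, *BIP2*, *CNX1*, *CRT1a*, *CRT1b* and *HSP90.7* were abundant, with means of at least 200 FPKM, and could be set against other abundant rows, where ratios spread less. Of 850 such rows, 9.88% were higher in *an3* by 25% or more and 2.47% lower by the same ratio. The middle of these rows was a log2 ratio of 0.08, and the 5th and 95th percentiles were -0.24 and 0.41. *CNX1*, *HSP90.7* and *BIP1* lay above the 95th percentile, and *CRT1a*, *CRT1b* and *BIP2* between the median and the 95th percentile. These percentiles describe the position of the genes, which were chosen on the same 2 columns.

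The other genes of the folding machinery were read from lists by role, counting measured rows only. These lists, too, were chosen with earlier results of these data known, so their counts and shares are a description. Of the co-chaperones that drive BiP, 7 of 7 had a log2 ratio above 0, 4 were past 1.5-fold higher and none was lower, with a median of 0.67. *ERDJ3A*, a J-domain protein, was at 32.8 FPKM in *an3*, against 9.18 FPKM in Col (log2 ratio 1.83). *ERDJ3B*, which works with *SDF2* as a partner of BiP, was at 202 FPKM in *an3*, against 115 FPKM in Col (log2 ratio 0.82). *SDF2* was at 157 FPKM in *an3*, against 98.7 FPKM in Col (log2 ratio 0.67). *ERDJ2B*, a homolog of the translocon protein SEC63, was at 18.6 FPKM in *an3*, against 11.4 FPKM in Col (log2 ratio 0.71). The co-chaperone *ERDJ3B* differed by more than BiP did, so that *BIP1* and *BIP2* summed to 4.55 times its FPKM in *an3*, against 6.24 times in Col.

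Among 15 genes of oxidative folding, which form and rearrange disulfide bonds, 3 were past 1.5-fold higher and none lower, with a median log2 ratio of 0.15 and 7 genes below 0. *PDIL1-2*, a disulfide isomerase, was at 127 FPKM in *an3*, against 68.5 FPKM in Col (log2 ratio 0.89). *ERO1*, the oxidase that recharges these isomerases, was at 12.6 FPKM in *an3*, against 7.3 FPKM in Col (log2 ratio 0.78). *PDIL2-2* had a log2 ratio of 0.60 and *PDIL2-1*, one of the most abundant isomerases, 0.48. The enzymes were therefore split, unlike the co-chaperones.

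The enzymes that make and trim the glycan that calnexin and calreticulin bind did not share the direction of the lectins. All 6 had a log2 ratio below 0, with a median of -0.10, and none was past 1.5-fold. *RSW3*, the catalytic subunit of glucosidase II, was at 53.2 FPKM in *an3*, against 61.5 FPKM in Col (log2 ratio -0.21). *MNS3*, a mannosidase, had a log2 ratio of -0.18, *STT3B*, a catalytic subunit of the oligosaccharyltransferase, -0.14, and *GCS1*, glucosidase I, -0.05. The lectin chaperones *CNX1*, *CNX2*, *CRT1a* and *CRT1b* were thus higher in *an3*, and *CRT3* was nearly level with a log2 ratio of 0.09. *UGGT* had -0.04, and these 6 enzymes lay between -0.21 and -0.01. With 1 pooled value per genotype, log2 ratios this close to 0 cannot be told from no difference.

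Of 12 measured genes in the list of UPR sensors and regulators, 3 were past 1.5-fold higher, *TIN1*, *BI1* and *NAC062*, and none lower. The median log2 ratio was 0.14, and 4 genes were below 0. The sensors *IRE1A* and *IRE1B* had log2 ratios of -0.18 and -0.09, and the membrane-bound factors *BZIP28* and *BZIP17* 0.01 and 0.19. *TIN1*, a gene first known as induced by tunicamycin, was at 17.1 FPKM in *an3*, against 3.75 FPKM in Col (log2 ratio 2.16). *BI1*, an ER membrane protein that restrains cell death, was at 218 FPKM in *an3*, against 135 FPKM in Col (log2 ratio 0.69). *NAC062*, a membrane-tethered transcription factor, had a log2 ratio of 0.62, and *BZIP60*, whose own transcription is part of the response, 0.49. Among 13 measured genes of ER-associated degradation, which removes proteins that fail to fold, 4 were past 1.5-fold higher and none lower, with a median of 0.31. The ubiquitin ligase *HRD1B* was at 68.9 FPKM in *an3*, against 28.5 FPKM in Col (log2 ratio 1.27). The lectin *OS9* had a log2 ratio of 0.73, and the derlins *DER2.1* and *DER1* 0.73 and 0.66. As a share, the 7 co-chaperones had 57.1% of their rows past 1.5-fold higher and the 13 degradation genes 30.8%. The 12 genes of the UPR list had 25.0% and the 15 oxidative folding genes 20.0%, beside 3.89% of all rows. For lists chosen with results known, the contrast with all rows describes them and tests nothing.

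Homologs of the chaperones in other compartments were read as a comparison. None of the 11 measured HSP70 genes outside the ER had a log2 ratio above 0, and the median was -0.22. *HSC70-1*, the main cytosolic HSP70, was at 919 FPKM in *an3*, against 1067 FPKM in Col (log2 ratio -0.22). The only one past 1.5-fold was *HSC70-2*, with 3.68 FPKM in *an3*, against 8.83 FPKM in Col. *HSC70-3*, of the cytosol, and *CPHSC70-2*, of the plastid, each had a log2 ratio of -0.40, and the mitochondrial *MTHSC70-2* -0.28. Of 6 HSP90 genes outside the ER, 5 were below 0, with a median of -0.19, and none was past 1.5-fold. The plastid *HSP90.5* had the lowest log2 ratio, -0.35, followed by *HSP90.6* with -0.22 and *HSP90.3* with -0.19, and the heat-inducible *HSP90.1* the only one above 0, 0.15. The cytosolic *HSP90.2* was at 181 FPKM in *an3*, against 205 FPKM in Col (log2 ratio -0.18).

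The mRNA ratios of ER chaperones to single cytosolic homologs, named after their values were seen, differed accordingly. *BIP1* and *BIP2* together had 1.00 times the FPKM of *HSC70-1* in *an3*, against 0.671 times in Col. *HSP90.7* had 2.02 times the FPKM of *HSP90.2* in *an3*, against 1.28 times in Col. The comparison holds within each column and does not depend on the scaling between the columns.

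**Figure D2:**
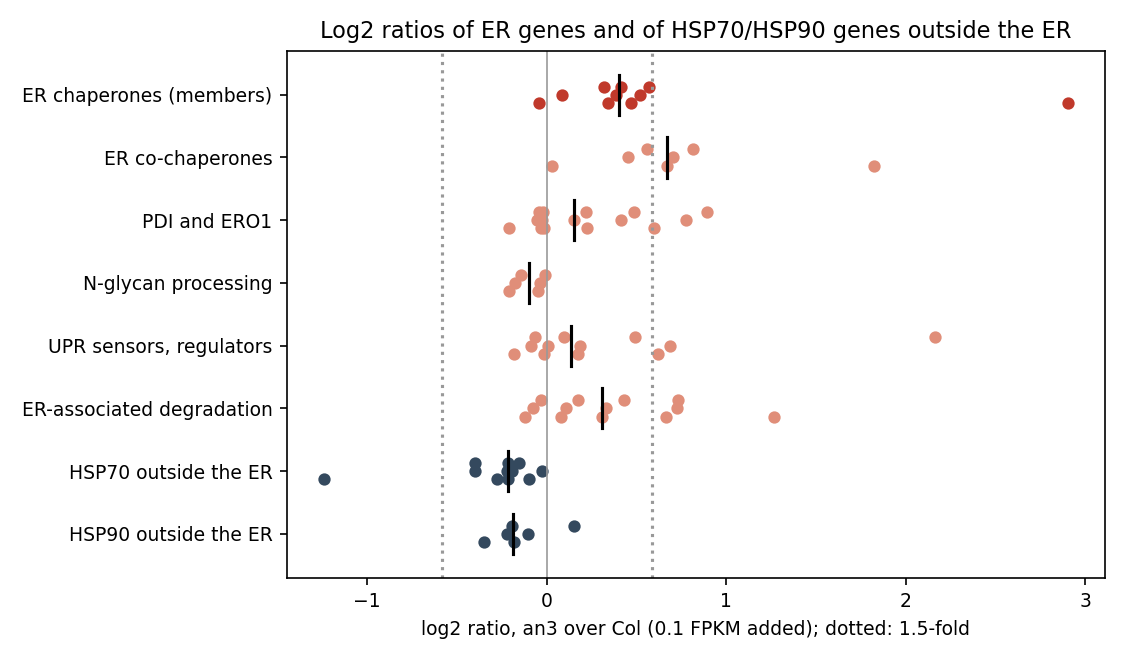
Log2 ratio of *an3* over Col (0.1 FPKM added) for the measured genes of 8 lists, 1 point per gene, with a black bar at each median and dotted lines at 1.5-fold in either direction. The ER chaperones (median 0.40) and co-chaperones (median 0.67) lie mostly right of 0, the N-glycan processing enzymes all lie slightly left of it, and the HSP70 genes outside the ER (median -0.22) lie left of it as well.

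Receptors were also read, among them some known from genetics to depend on ER quality control. Of 5 receptors, the immune receptors *EFR*, whose folding needs CRT3 and UGGT, and *FLS2* had means below 1 FPKM. *BRI1*, the brassinosteroid receptor whose mutant forms are retained by CRT3 and UGGT, was at 39.4 FPKM in *an3*, against 45.4 FPKM in Col (log2 ratio -0.20). *CLV1* had a log2 ratio of -0.15, and *CLV2* was at 1.37 FPKM in *an3*, against 1.01 FPKM in Col (log2 ratio 0.40). None was past 1.5-fold.

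The promoter elements were then counted over the 27443 windows of 300 bases that reach from 250 bases before to 50 bases after each annotated start. ERSE-I was found in 5 of the 10 chaperone genes, *BIP3*, *HSP90.7*, *CNX1*, *CRT1a* and *UGGT*, and in 0.849% of all windows. The UPRE core was found in 5, *BIP2*, *HSP90.7*, *CNX1*, *CRT1a* and *UGGT*, and in 1.51% of all windows. ERSE-II was found in *BIP2* and in 0.0692% of all windows. The short UPRE-III was found in *BIP2*, *BIP3* and *CRT3*, and in 8.63% of all windows. A UPRE core together with ERSE-I or ERSE-II was found in 33 windows of the genome, 0.120% of all, and 5 of these were the chaperone genes *BIP2*, *HSP90.7*, *CNX1*, *CRT1a* and *UGGT*. The elements were searched because they are known from the UPR, which raises chaperone transcription. Their share among ER genes, here and below, therefore describes these genes and tests nothing.

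Annotated starts can lie far before the start codon, so the 500 bases before the start codon were searched as well, an alternative chosen after the first windows had been seen. There, 8 of the 10 genes held ERSE-I, ERSE-II or the UPRE core, against 2.87% of 27444 windows. *BIP1* was added, with an ERSE-II at -168 and a UPRE core at -162, and *CRT1b*, with an ERSE-I at -178. *CNX2* held none of the 4 elements, and *CRT3* held only UPRE-III.

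Whether the elements go with the ratios of the 10 genes was not tested. Only *CNX2* and *CRT3* held none of ERSE-I, ERSE-II and the UPRE core before the start codon. *CNX2*, with no element, had a log2 ratio of 0.57, and *CRT3*, with only UPRE-III, had 0.09. *UGGT*, with ERSE-I at -28 and the UPRE core at -14 from the start codon, had -0.04. No leader is annotated for *UGGT*, so whether its elements are promoter sequence is not known. The other genes with ERSE-I, ERSE-II or the UPRE core had 0.32 or more. Outside the 10 genes, 22 measured rows had a UPRE core together with ERSE-I or ERSE-II in the 300-base windows, and none of these was past 1.5-fold in either direction, with a median log2 ratio of -0.01. In the 500 bases before the start codon there were 30 such rows, of which 1 was past 1.5-fold higher and none lower, with a median of 0.03. The 5 chaperone genes with this pair in the 300-base windows were not past 1.5-fold either. The count past 1.5-fold therefore does not set the 22 rows apart from them. Those 22 rows hold 2 of the other ER genes listed here, and their log2 ratios ran from -0.51 to 0.45. In the 300-base windows again, of 183 other measured rows with ERSE-I, 7.65% were past 1.5-fold higher and 1.64% past 1.5-fold lower, with a median of 0.01. Of the rows without ERSE-I, 3.67% were past 1.5-fold higher. The 183 rows hold 10 of the other ER genes listed here, none of them past 1.5-fold lower. Of the 14 rows past 1.5-fold higher, *HRD1B*, *PDIL1-2*, *OS9*, *BI1* and *PDIL2-2* are from those lists, so the share rests on them in part. The share without the listed genes was not computed. Of the other 56 ER genes listed, 12 held ERSE-I, ERSE-II or the UPRE core in the 300-base windows, against 2.30% of all windows. In the 500 bases before the start codon 16 did, against 2.87%. None of the 19 HSP70 and HSP90 genes outside the ER held one in either search, a number too small to tell from shares of this size. A match is a description of the letters in a window, and binding was not measured.

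**Figure D3:**
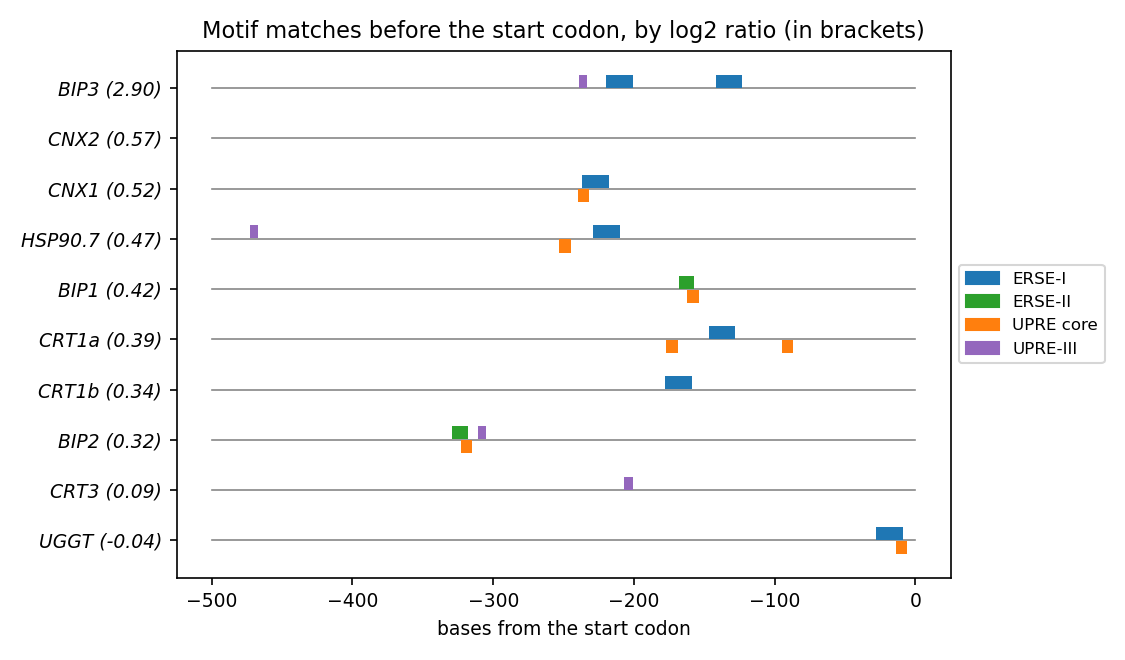
Matches to ERSE-I, ERSE-II, the UPRE core and UPRE-III in the 500 bases before the start codon of the 10 ER chaperone genes, on either strand, drawn to scale with the distance from the start codon in bases and with the genes ordered by their log2 ratio of *an3* over Col (in brackets). *BIP3* holds ERSE-I in 2 copies, *CNX2* holds no match, and *UGGT*, last in the order, holds ERSE-I and the UPRE core close to the start codon.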

How the data were processed

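Total RNA of root tips (3 samples of *an3* and 3 of Col) was sequenced with reads of 100 bases. Per the labels, the authors ran TuxNet, with read trimming in ea-utils fastq-mcf, alignment in HISAT2 and estimation in Cufflinks. Tool versions, genome build and strand setting are not stated there. The authors deposited pooled FPKM values, 1 per gene and genotype. The deposited log2 fold change and q-value of the authors' comparison (2 columns) were not used. The FPKM columns sum to 869161 in *an3* and 833287 in Col.

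Ratios were computed with Python 3.11.15, pandas 2.3.3 and numpy 2.4.6, with 0.1 FPKM added for log2 ratios; a row was measured at a mean of at least 1 FPKM and counted past 1.5-fold. With no values per sample, no test was run. Named genes were the 10 chaperone genes, *AN3* and up to 4 per list with the largest log2 ratio in either direction. Named besides, after their values were seen, were *HSC70-1*, *HSP90.1*, *HSP90.2*, *EFR*, *FLS2*, *IRE1A*, *IRE1B*, *BZIP28*, *BZIP17* and single root and shoot markers. The members and lists were chosen with earlier results of these data known. Elements were searched and sequences read in TAIR10.1 (RefSeq) with Biopython 1.88; counting steps were tested on simulated data. Figures were drawn with matplotlib 3.10.9.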

Additional observations from a re-analysis of the deposited data

How the results depend on the processing

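No paired analysis was possible because the columns carry no replicate values, and the planned fit by sample and the leaving out of single replicates were not run for the same reason. Of 40 log2 ratios of the chaperone genes under another pseudocount or scaling, 39 moved by less than 1.5-fold, and that of *BIP3* was 1.89 with a pseudocount of 1 FPKM. Of 56 values for the lists, 48 stayed within 1.5 times. The count of chaperone genes higher past the limit was 0 with a minimum mean of 5 FPKM, which leaves out *BIP3*, and 7 at a difference of 25%. Of the lists, those whose count moved by over 1.5 times are given here. At 25%, 5 oxidative folding genes and 1 receptor were higher, and 3 HSP70 genes and 1 HSP90 gene outside the ER lower. At 2-fold, 1 co-chaperone, 1 gene of the UPR list (*TIN1*), 1 degradation gene and 0 oxidative folding genes were higher, beside 197 of 17229 measured rows. On the given strand alone, ERSE-I was found in 2 chaperone genes, the UPRE core in 1 and UPRE-III in 0; before the start codon, ERSE-II was found in 2. Counts follow from the limits by construction. The median log2 ratio of the rows outside the 10 genes with a UPRE core and ERSE-I or ERSE-II, -0.01, was 0.04 on the given strand alone and 0.03 before the start codon. Depth per sample is unknown, so the precision of low values such as *BIP3* in Col cannot be given.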
